A study of Rattus norvegicus with 8 samples.

Results

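The annexins and their S100 partners were followed in primary rat oligodendrocyte progenitor cells (OPCs) treated with interleukin-4 (IL-4) or with PBS. The set holds 8 annexin genes (Anxa1, Anxa2, Anxa3, Anxa4, Anxa5, Anxa6, Anxa7 and Anxa11) and 2 S100 genes (S100a10 and S100a6). Its members were chosen by family, and the family was selected on the measured values of Anxa3 and Anxa2, which were much lower in IL-4-treated OPCs. For that reason the differences of the 10 members between IL-4 and PBS are given as a description, with their errors and without p-values. Where a member is said to be called, this is the outcome of the fit across all probe sets and serves as a description too. Each member has 1 probe set, so the set covers 10 of the 23188 probe sets on the array and 10 of 15037 genes that have a symbol. No other probe set carried the same values as a member on all arrays.

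The OPCs were prepared from Sprague Dawley rat pups of both sexes at postnatal day 1 to 2. They were cultured from brain tissue, shaken off an astrocyte layer after an earlier round of shaking to remove microglia, and kept in serum-free medium. Cultures received PBS or IL-4 at 20 ng/mL for 3 days, and the labels give the same strain, age and medium for both. RNA of each whole culture was measured on a Clariom S rat array, with 4 arrays per treatment and 8 in all, and the methods state that the replicates were biological. Values are log2 signals, so that a difference of 1 is a 2-fold change, and fewer cells of a type cannot be told apart from less RNA per cell.

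Annexins are cytosolic proteins that bind negatively charged phospholipids when calcium rises, and they act in membrane repair, vesicle traffic and the linking of membranes to the actin cytoskeleton. S100 proteins are small calcium-binding proteins that mostly form dimers. S100a10, which has lost the ability to bind calcium, joins with Anxa2 in a complex that lies under the plasma membrane and, at the cell surface, aids the conversion of plasminogen to plasmin. S100a6 binds several annexins, among them Anxa2, Anxa6 and Anxa11. Anxa1 is known as an anti-inflammatory protein of leukocytes that acts through formyl peptide receptors. Anxa5 is the standard probe for phosphatidylserine on dying cells.

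The array medians lay between 6.13 and 6.16. The 9 OPC markers measured had a mean of 13.35 to 13.85 on the PBS arrays and of 13.62 to 13.70 on the IL-4 arrays, and the 9 markers of mature oligodendrocytes had means of 14.22 to 15.63 and of 15.66 to 15.79. Markers of microglia and macrophages were present as well, with means of 8.33 to 8.69 on 3 PBS arrays, 9.86 on PBS array 4, and 8.99 to 9.10 on the IL-4 arrays. PBS array 4 was the highest of the PBS arrays for 11 of these 12 markers, so the values of Anxa3 are also given without it. Means were 8.66 to 9.10 and 8.70 to 8.89 for 9 astrocyte markers, 4.47 to 4.76 and 4.49 to 4.53 for 10 markers of endothelium and pericytes, and 4.98 to 5.07 and 4.66 to 4.85 for 10 markers of fibroblasts and meninges, on PBS and IL-4 arrays respectively. As a gauge of dim signal, 1057 olfactory receptor genes had a median of 4.05 and a 95th percentile of 5.41.

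In IL-4-treated OPCs, Anxa3, Anxa2 and Anxa11 were lower than in PBS-treated OPCs, Anxa5 and Anxa4 were higher, and the groups overlapped for the other 5 members. In the fit across all probe sets, 2 of 10 members were called higher and 3 lower at an adjusted p under 0.05, against 12% and 19.7% of all probe sets. With a change of more than 2-fold required as well, 2 were called higher and 2 lower, against 2.16% and 2.34%. All 4 IL-4 arrays lay above all 4 PBS arrays for 2 members, against 12.2% of all probe sets, and below them for 3, against 20.6%. Since this comparison chose the family, nothing is read from these counts. Of the 9 mature oligodendrocyte markers 5 rose with IL-4, and the part of maturation in the members' differences was not tested. The median log2 difference of the 10 members was -0.011 and that of all probe sets was -0.068.

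**Figure D1:**
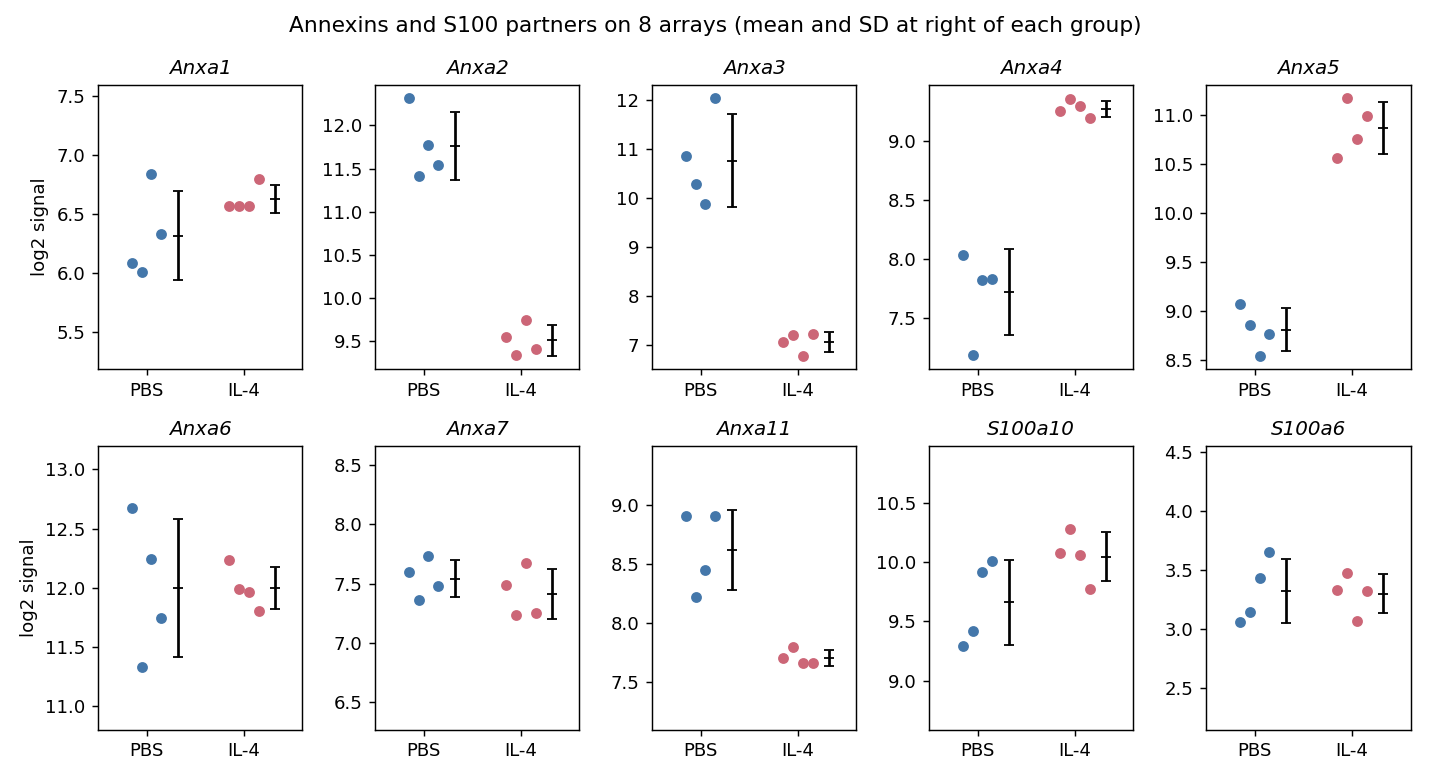
Log2 signal of each of the 10 members on the 4 PBS arrays (blue) and the 4 IL-4 arrays (red), with the mean and SD of each group in black. Each panel has its own vertical range of at least 2.4 log2 units; the groups stand apart for Anxa2, Anxa3, Anxa4, Anxa5 and Anxa11 and overlap for the other 5.

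Anxa3 had the largest difference of the set. Anxa3, an annexin known from neutrophils and from blood vessel growth, stood at 10.86, 10.29, 9.87 and 12.05 on PBS arrays 1 to 4. On the IL-4 arrays it stood at 7.06, 7.20, 6.77 and 7.21. Every IL-4 array was below every PBS array, with 2.66 log2 units between the nearest values, while the PBS arrays themselves spread over more than 2 units. The means were 10.77 ± 0.946 and 7.06 ± 0.205 (SD, n = 4 arrays each), which gives a log2 difference of -3.71 ± 0.37 (SE), or 13.1-fold lower. PBS array 4, the highest for Anxa3, is also the array with the highest mean of microglial and macrophage markers. Over the 4 PBS arrays the order of Anxa3 (array 4, then 1, 2 and 3) was the order of that marker mean, which was 9.86, 8.69, 8.36 and 8.33. On the IL-4 arrays that marker mean was 8.99 to 9.10, but the single markers went both ways, since 5 of the 12 rose and 2 fell with IL-4. Cx3cr1, the fractalkine receptor of microglia, had the same order as Anxa3 over the PBS arrays, with 7.22, 7.21, 7.14 and 8.25 on arrays 1 to 4, and fell without overlap to between 5.72 and 6.09 (log2 difference -1.46 ± 0.23, SE, adjusted p = 0.0012). Trem2, a lipid receptor of microglia, was also highest on PBS array 4 and lower on every IL-4 array, with a log2 difference of -1.35 ± 0.50 (SE, adjusted p = 0.062), which missed the threshold. C1qa and C1qb, of the complement complex C1q, were highest on PBS array 4 among the PBS arrays as well and rose by 1.69 and 1.96 (adjusted p = 0.0012 and 0.0006). Csf1r, P2ry12 and Aif1 were highest there too and were the others that rose, by 1.39, 1.35 and 1.01. P2ry12, which rose, had the full order of Anxa3 over the PBS arrays, at 7.42, 7.28, 7.14 and 8.69 on arrays 1 to 4. Itgam, another of the 12 markers, had that order as well. Its groups overlapped, and its log2 difference of -1.15 ± 0.43 (SE, adjusted p = 0.062) missed the threshold. Tmem119, the other marker that fell, was lowest on PBS array 4, at 4.80, 4.59, 4.74 and 4.42 on PBS arrays 1 to 4. Its log2 difference was -0.62 ± 0.14 (SE, adjusted p = 0.0075), at dim levels under 5.41. Without PBS array 4 the log2 difference of Anxa3 was -3.28 ± 0.22 (SE). The part of these cells in the level of Anxa3 was not tested beyond these values.

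Anxa2, the partner of S100a10 and a link between membranes and actin, stood at 12.32, 11.42, 11.77 and 11.54 on PBS arrays 1 to 4 and at 9.55, 9.34, 9.75 and 9.41 on the IL-4 arrays. The 2 groups were 1.67 log2 units apart at their nearest values, which is more than the range within either group. The means were 11.76 ± 0.399 and 9.51 ± 0.181 (SD, n = 4 arrays each), which gives a log2 difference of -2.25 ± 0.19 (SE), or 4.76-fold lower. PBS array 1 was the highest for Anxa2. The order of the PBS arrays (1, 3, 4 and 2) was that of the mean of 10 neuron markers, which was 7.96, 7.80, 7.53 and 7.40. This order was not particular to neuron markers. The OPC marker Cspg4 had it too, at 8.88, 6.46, 7.53 and 7.20 on PBS arrays 1 to 4, as did Anxa6, whose groups overlapped. Among the PBS arrays, array 1 was the highest for 4 of 10 neuron markers, 5 of 9 OPC markers and 6 of 10 markers of endothelium and pericytes. On the IL-4 arrays the neuron marker mean was 7.46 to 7.54, but of the 10 neuron markers 3 rose and 2 fell. The 2 that fell had the same order over the PBS arrays as Anxa2. Tubb3, a neuronal tubulin, was at 12.77, 9.78, 11.65 and 11.11 on PBS arrays 1 to 4 and at 9.17 to 9.29 with IL-4 (log2 difference -2.09 ± 0.47, SE, adjusted p = 0.0074). Syt1, a calcium sensor of synaptic vesicles, was at 12.92, 9.53, 11.57 and 10.30 on PBS arrays 1 to 4 and at 8.98 to 9.5 with IL-4 (log2 difference -1.76 ± 0.57, SE, adjusted p = 0.036). Both thus lay below their PBS range on every IL-4 array, by 0.49 log2 units for Tubb3 and only 0.03 for Syt1, against 1.67 for Anxa2. Gad1, Gad2 and Map2 were the 3 that rose, and each was lowest on PBS array 1 and highest on PBS array 2, the reverse of Anxa2. Snap25 had the order of Anxa2 over the PBS arrays and was not called, with a log2 difference of 0.30. Of the mature oligodendrocyte markers, Mal, Ermn and Cnp had the reverse order of Anxa2 over the PBS arrays. Mal was at 4.99, 9.30, 7.37 and 8.83 on PBS arrays 1 to 4, and Ermn at 8.50, 11.33, 9.92 and 10.86. Mal and Ermn rose by 3.31 and 2.42, and Cnp was not called. Mog and Mobp, which rose too, were also lowest on PBS array 1 and highest on PBS array 2. Mbp rose as well but was highest on PBS array 1. The parts of neurons and of maturation in the level of Anxa2 were not tested beyond these values.

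**Figure D2:**
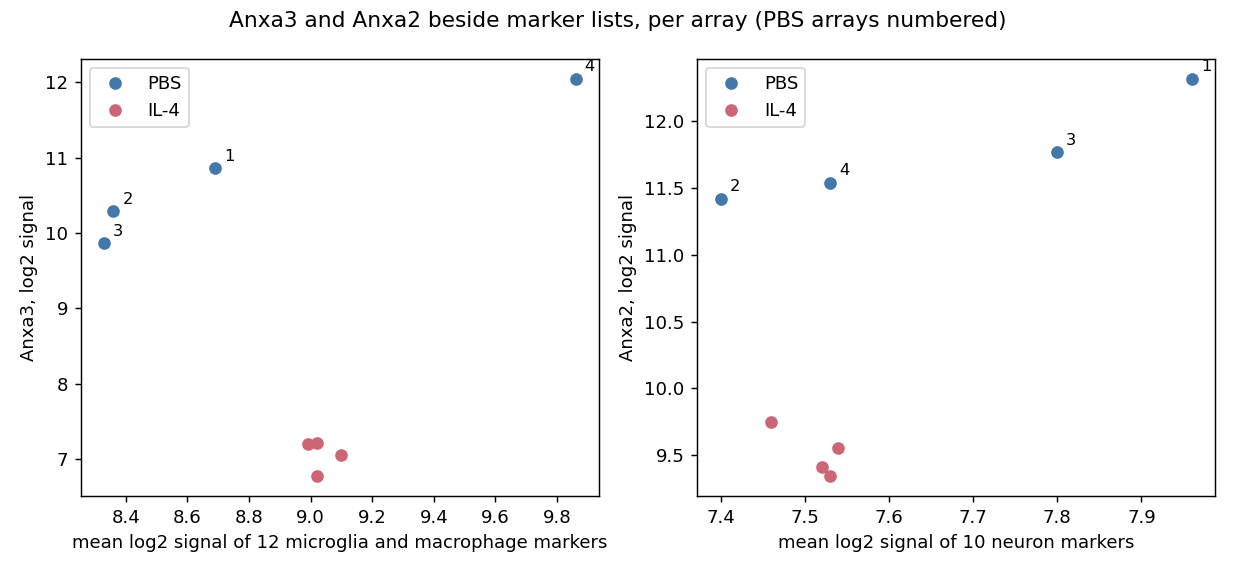
Left, log2 signal of Anxa3 against the mean log2 signal of 12 microglia and macrophage markers on each array; right, Anxa2 against the mean of 10 neuron markers. PBS arrays are blue and numbered, IL-4 arrays are red: on the PBS arrays both annexins follow the order of the marker mean, and the IL-4 arrays lie lower at marker means within the range of the PBS arrays, where single markers of both lists rose and fell. Of the cell type marker lists, only the one plotted has the order of its annexin, and an order of 4 arrays can match by chance.

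S100a10, the partner of Anxa2, was not lower with IL-4. It stood at 9.29, 9.42, 9.92 and 10.01 on PBS arrays 1 to 4 and at 10.08, 10.28, 10.06 and 9.77 on the IL-4 arrays. Of the IL-4 arrays, 3 were above all PBS arrays and array 4 was within their range. The means were 9.66 ± 0.358 and 10.05 ± 0.210 (SD, n = 4 arrays each), which gives a log2 difference of 0.39 with a 95% interval of -0.01 to 0.79. The interval of Anxa2 was -2.66 to -1.84. S100a10 was not called, except after quantile normalization, where its log2 difference was 0.535. S100a6 lay between 3.06 and 3.65 on all 8 arrays, in the range of the olfactory receptor genes, so that no level or difference of S100a6 can be read from these arrays.

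Anxa5 and Anxa4 stood on the other side of the set. Anxa5 was at 9.07, 8.86, 8.54 and 8.77 on PBS arrays 1 to 4 and at 10.56, 11.18, 10.76 and 10.99 on the IL-4 arrays. The groups were 1.49 log2 units apart, and the spread was alike in both, with means of 8.81 ± 0.220 and 10.87 ± 0.270 (SD, n = 4 arrays each). The log2 difference was 2.06 ± 0.16 (SE), or 4.18-fold higher. Anxa4, known from secretory epithelia, where it binds to membranes and affects their ion transport, was at 8.03, 7.19, 7.82 and 7.83 with PBS and at 9.25, 9.35, 9.29 and 9.19 with IL-4. PBS array 2 was the lowest for Anxa4, and the IL-4 arrays all lay between 9.19 and 9.35. The means were 7.72 ± 0.365 and 9.27 ± 0.0673 (SD, n = 4 arrays each), which gives a log2 difference of 1.55 ± 0.17 (SE), or 2.93-fold higher.

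Anxa11, an annexin with a long N-terminal region that tethers RNA granules to lysosomes in neurons, was lower by less than 2-fold. It was at 8.90, 8.22, 8.45 and 8.90 on PBS arrays 1 to 4 and at 7.70, 7.80, 7.66 and 7.66 on the IL-4 arrays. The nearest values of the groups were 0.42 log2 units apart, and the log2 difference was -0.91 ± 0.16 (SE), or 1.88-fold lower. Anxa7, which like Anxa11 has a long N-terminal region, ran from 7.36 to 7.73 with PBS and from 7.23 to 7.67 with IL-4. Its log2 difference was -0.13 with a 95% interval of -0.43 to 0.17, so that these 2 relatives had intervals that do not overlap, that of Anxa11 being -1.26 to -0.56.

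Anxa6, which has more annexin repeats than the other members and binds membranes at sites of endocytosis and repair, was at 12.67, 11.33, 12.24 and 11.74 on PBS arrays 1 to 4 and at 12.23, 11.99, 11.96 and 11.80 on the IL-4 arrays. All IL-4 values lay within the range of the PBS values. The means of both groups were equal to 2 decimals, with an SD of 0.584 for PBS and 0.177 for IL-4 (n = 4 arrays each), and the 95% interval of the log2 difference was -0.54 to 0.54. Anxa6 was highest on PBS array 1 and lowest on PBS array 2, and the same arrays were the extremes for Anxa2 and Anxa4. Anxa1 was at 6.09, 6.01, 6.84 and 6.33 on PBS arrays 1 to 4. On IL-4 arrays 1, 2 and 3 it was at 6.57 each, and on IL-4 array 4 at 6.80, so the groups overlapped only through PBS array 3. The log2 difference was 0.31 with a 95% interval of -0.07 to 0.69, and it was 0.484 and called higher when PBS array 3 was left out.

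The members varied more among the PBS arrays than among the IL-4 arrays. The SD was larger among the PBS arrays for 8 of 10 members, as it was for 67.6% of all probe sets, where the median SD was 0.22 for PBS and 0.15 for IL-4. Among the PBS arrays, 6 members were lowest on array 2, 5 were highest or tied for highest on array 1, and 3 were highest on array 4. When the 4 IL-4 arrays, which lie close together, were averaged to 1 sample that is assumed to vary like the PBS arrays, Anxa5 was the only member still called. The standard error of Anxa3 was then 0.69 and that of Anxa2 was 0.34.

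Promoter sequences of 8 members were found in the RefSeq table of the rat build GRCr8, and the 250 bases before the start are shown for the members that were more than 2-fold apart, of which Anxa2 and Anxa3 were lower and Anxa4 and Anxa5 higher. The regions are chr8:78986002-78986251 on the plus strand, chr14:13085598-13085847 on the minus strand, chr4:120798514-120798763 on the minus strand and chr2:121272697-121272946 on the minus strand. Each is written 5′ to 3′ toward the gene, with capitals for the motifs found.
Anxa2: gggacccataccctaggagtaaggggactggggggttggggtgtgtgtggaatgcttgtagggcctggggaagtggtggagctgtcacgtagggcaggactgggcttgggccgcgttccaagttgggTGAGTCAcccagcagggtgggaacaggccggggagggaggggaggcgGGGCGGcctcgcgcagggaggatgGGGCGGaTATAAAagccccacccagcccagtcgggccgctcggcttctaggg
Anxa3: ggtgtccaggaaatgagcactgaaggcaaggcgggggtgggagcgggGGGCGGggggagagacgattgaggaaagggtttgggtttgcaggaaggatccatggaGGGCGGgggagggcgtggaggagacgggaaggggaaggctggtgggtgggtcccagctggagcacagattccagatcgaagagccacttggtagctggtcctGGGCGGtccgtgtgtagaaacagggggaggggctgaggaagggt
Anxa4: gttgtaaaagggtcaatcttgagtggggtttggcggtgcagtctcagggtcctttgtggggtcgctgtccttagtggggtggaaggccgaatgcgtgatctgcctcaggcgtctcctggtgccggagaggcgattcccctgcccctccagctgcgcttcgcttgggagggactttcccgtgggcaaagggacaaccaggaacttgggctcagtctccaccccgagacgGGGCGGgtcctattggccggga
Anxa5: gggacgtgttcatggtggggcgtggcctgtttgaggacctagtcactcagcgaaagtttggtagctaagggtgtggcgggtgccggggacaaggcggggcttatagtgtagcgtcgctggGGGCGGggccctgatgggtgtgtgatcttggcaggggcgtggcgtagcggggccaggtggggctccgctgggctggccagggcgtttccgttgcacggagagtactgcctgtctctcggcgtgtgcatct

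The motifs searched, on both strands and in the same 250 bases of 33469 promoters, were the palindrome TTCNNNNGAA of STAT6 (the factor that the IL-4 receptor activates), the related STAT palindrome TTCNNNGAA, the AP-1 site TGANTCA, the GC box GGGCGG, the TATA box TATAAA, the PPAR direct repeat AGGTCANAGGTCA and the CRE core TGACG. In the window of Anxa2 they gave an AP-1 site at -123 to -117, GC boxes at -76 to -71 and -52 to -47, and a TATA box at -45 to -40. Anxa3 held 3 GC boxes, and Anxa4 and Anxa5 held 1 each. Over the 8 members matched, 6 held a GC box, against 30.5% of all promoters, and Anxa1 and Anxa2 held a TATA box, against 12.9%. The AP-1 site was found in 1 member and in 6.34% of all promoters. No member held the STAT6 palindrome, the related STAT palindrome, the PPAR repeat or the CRE core in these 250 bases, where 6.25%, 7.67%, 0.0508% and 18.2% of all promoters did. The GC content was 67.2% for Anxa2, 64.0% for Anxa3, 62.4% for Anxa4 and 65.2% for Anxa5, with a median of 51.2% over all promoters. A match is a description of letters and not of a bound site. Of the motifs searched, the GC box was in all 4 windows shown, in those of members that were lower and of members that were higher.

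The other annexins, the other S100 genes and 4 lists of related genes (plasminogen activation, formyl peptide receptors, membrane repair and phosphatidylserine) were tested in the same fit, with p adjusted over all 23188 probe sets. With the IL-4 arrays averaged to 1 sample, 0 of the 55 genes in these 6 lists were called by limma, and 9 of them were higher and 5 lower at an unadjusted p under 0.05. Of the 3 other annexins measured (Anxa8, Anxa10 and Anxa13), 0 rose and 0 fell, with 0 at an unadjusted p under 0.05 in limma and 0 by the methods' t-test. Anxa10 and Anxa13 had log2 differences of 0.22 ± 0.16 (SE, adjusted p = 0.32) and -0.21 ± 0.18 (SE, adjusted p = 0.39), at levels in the range of the olfactory receptor genes. Of 13 other S100 genes measured, 3 rose and 2 fell, and the remaining 8 missed the threshold, where 12% of all probe sets were higher and 19.7% lower. The median log2 difference was 0.16.

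The S100 gene that rose most was S100b, a calcium sensor known from astrocytes and from cells of the oligodendrocyte lineage. It stood at 6.69, 6.17, 7.29 and 6.56 on PBS arrays 1 to 4 and at 8.84, 9.28, 9.26 and 8.88 on the IL-4 arrays. The groups did not overlap, and the log2 difference was 2.39 ± 0.22 (SE, adjusted p = 6.1e-05). It lay between 2.22 and 2.59 in 15 alternatives and was called in 14 of them, with an adjusted p of 0.057 when the IL-4 arrays were averaged. Of the 9 mature oligodendrocyte markers 5 rose and 0 fell, and of the 9 astrocyte markers 2 rose and 3 fell, and their part in the rise of S100b was not tested. S100a16 rose by 0.92 ± 0.29 (SE, adjusted p = 0.032), with PBS array 1 at 4.79 and the other PBS arrays at 6.08 to 6.34. Without PBS array 1 its log2 difference was 0.564 (adjusted p = 0.0094), while the call was lost without any of the IL-4 arrays (adjusted p of 0.058 to 0.077) and by the methods' t-test (adjusted p = 0.12). S100a5 rose by 0.66 ± 0.19 (SE, adjusted p = 0.021), by 0.448 without IL-4 array 3 (adjusted p = 0.023), and was not called by the methods' t-test (adjusted p = 0.073). S100a4, known from motile cells and from fibroblasts, fell by 1.11 ± 0.21 (SE, adjusted p = 0.0028) on the log2 scale, from 5.01 ± 0.419 to 3.90 ± 0.257 (SD, n = 4 arrays each). Both of its means are under 5.41, so the size of this fall cannot be read exactly. The limit of dim signal holds for S100a5 as well, whose PBS mean was 4.93. The mean of the 10 fibroblast and meningeal markers was 4.66 to 4.85 with IL-4 against 4.98 to 5.07, also under 5.41. Of these markers 3 fell and 1, Islr, rose, and their part in the fall of S100a4 was not tested. S100a1, a regulator of calcium handling in muscle, fell by 0.46 ± 0.13 (SE, adjusted p = 0.018), a call that was lost without IL-4 array 1, 2 or 3 (adjusted p of 0.051 to 0.054). S100a11, a partner of Anxa1, spread from 6.43 to 7.99 on the PBS arrays and had a log2 difference of -0.19 with a 95% interval of -0.88 to 0.50.

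**Figure D3:**
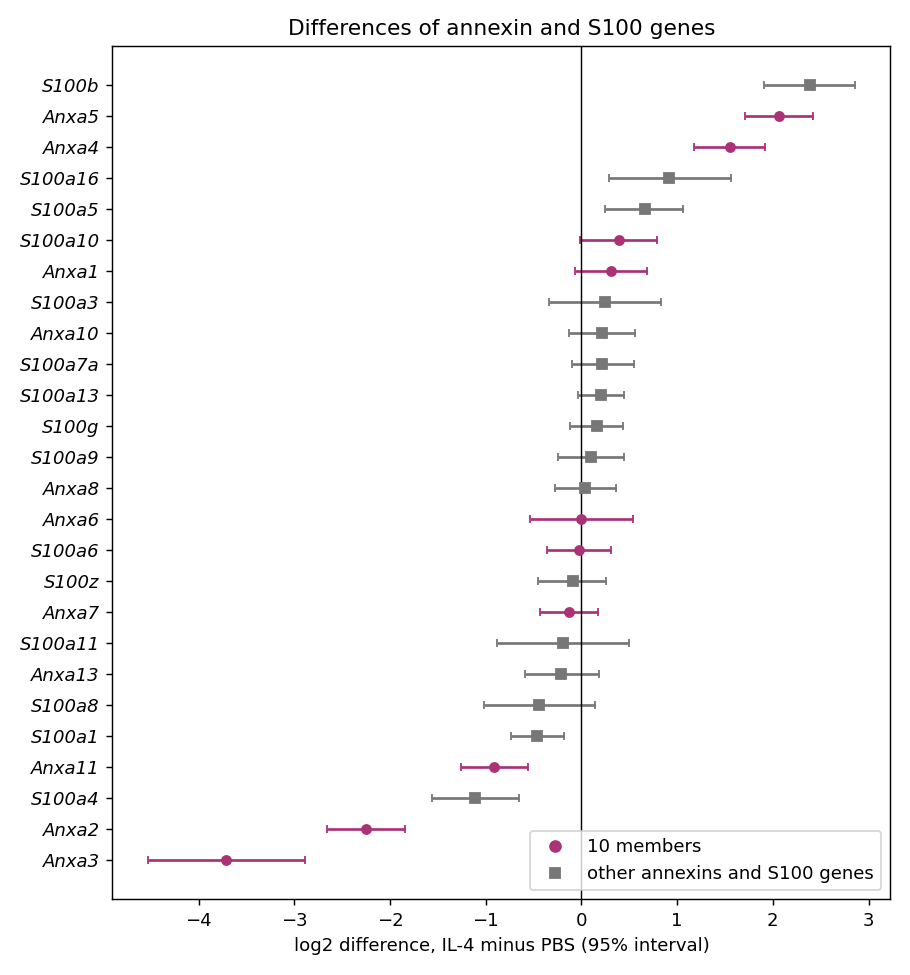
Log2 difference (IL-4 minus PBS) with its 95% interval from the fit across all probe sets, for the 10 members (circles) and for 16 other annexin and S100 genes (squares), ordered by the difference. S100b, Anxa5 and Anxa4 lie at the high end, between 1.55 and 2.39, and Anxa3 and Anxa2 at the low end, at -3.71 and -2.25.

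Genes of plasminogen activation, the process that the complex of Anxa2 and S100a10 aids at the cell surface, were measured for 8 members of the list. Of these, 4 rose and 1 fell, and the remaining 3 missed the threshold, where 12% of all probe sets were higher and 19.7% lower. The median log2 difference was 0.44, Plg was dim, and Plau was called in few of the alternatives. Plat, which encodes tissue plasminogen activator, stood at 8.54, 8.86, 8.08 and 8.30 with PBS and at 9.22, 9.57, 9.80 and 9.71 with IL-4. The groups did not overlap, and the log2 difference was 1.13 ± 0.18 (SE, adjusted p = 0.0014). Plaur, the receptor of urokinase, rose from 6.65 ± 0.289 to 7.42 ± 0.130 (SD, n = 4 arrays each), which gives a log2 difference of 0.77 ± 0.15 (SE, adjusted p = 0.0037). Plau, urokinase itself, had a log2 difference of 0.82 ± 0.28 (SE, adjusted p = 0.049) and was at 7.83 on PBS array 4, within the IL-4 range of 7.61 to 7.87. It was called in 5 of 15 alternatives, whose adjusted p ran from 0.0024 to 0.48. Plg, plasminogen, also passed the test, with a log2 difference of 0.52 ± 0.11 (SE, adjusted p = 0.0063), at levels of 3.92 to 4.72 that are within the range of the olfactory receptor genes. The gene that fell was Serpine2, protease nexin 1, an inhibitor of thrombin and plasminogen activators. It was at 14.76, 14.57, 15.15 and 14.53 with PBS and at 13.86, 13.81, 13.88 and 13.91 with IL-4, a log2 difference of -0.89 ± 0.14 (SE, adjusted p = 0.0013).

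**Figure D4:**
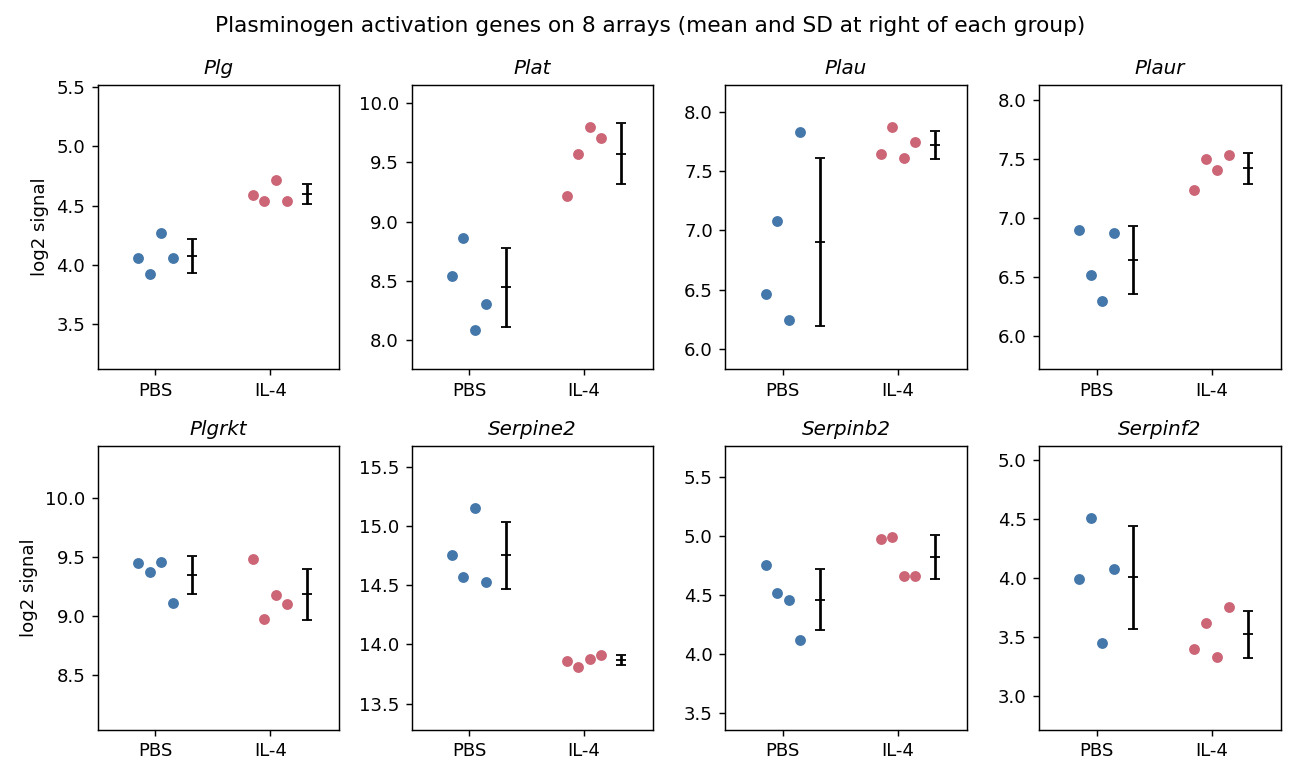
Log2 signal of the 8 plasminogen activation genes measured on the 4 PBS arrays (blue) and the 4 IL-4 arrays (red), with the mean and SD of each group in black and a separate vertical range per panel. Plat and Plaur stand higher and Serpine2 stands lower with IL-4 without overlap, while Plau overlaps through PBS array 4 at 7.83. Plg stands higher without overlap as well, at dim levels.

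Of 18 measured genes of membrane repair and of C2-domain proteins, which like annexins bind phospholipids when calcium rises, 3 rose and 2 fell, and the remaining 13 missed the threshold, shares to be read against 12% and 19.7% of all probe sets. The median log2 difference was -0.11. Capn1, a calcium-dependent protease that cuts proteins at membrane wounds, rose by 0.98 ± 0.19 (SE, adjusted p = 0.0031), from 5.13 ± 0.222 to 6.11 ± 0.367 (SD, n = 4 arrays each). Its PBS mean lay in the dim range, under 5.41. Dysf, dysferlin, which acts with annexins in the repair of muscle membranes, fell by 0.94 ± 0.15 (SE, adjusted p = 0.0013) on the log2 scale, from 5.61 ± 0.292 to 4.68 ± 0.103 (SD, n = 4 arrays each), so that its IL-4 mean lay in the dim range. Otof and Cpne6, with log2 differences of 0.54 (adjusted p = 0.021) and 0.50 (adjusted p = 0.0044), had means under 5.41 in both groups, and Otof was not called by the methods' t-test (adjusted p = 0.055). The copine Cpne1 fell by 0.38 ± 0.11 (SE, adjusted p = 0.029), and its call was kept in 8 of 15 alternatives. The replicate block (adjusted p = 0.056) and quantile normalization (0.17) ended it, as did the omission of any of the IL-4 arrays (adjusted p of 0.055 to 0.075). Of 12 genes for the exposure and recognition of phosphatidylserine, the lipid that Anxa5 binds, 1 rose and 1 fell, and the remaining 10 missed the threshold, with a median of 0.017 and the same shares over all probe sets. Pros1, protein S, a ligand of the receptors Tyro3, Axl and Mertk, went from 10.74 ± 0.384 to 9.76 ± 0.0150 (SD, n = 4 arrays each), which gives a log2 difference of -0.98 ± 0.17 (SE, adjusted p = 0.0021). Stab2, a scavenger receptor, had a log2 difference of 0.81 ± 0.15 (SE, adjusted p = 0.0024) at levels of 3.19 to 4.48, in the range of the olfactory receptor genes. The same holds for Fpr1, the only formyl peptide receptor measured, with a log2 difference of -0.82 ± 0.14 (SE, adjusted p = 0.0019) and means of 4.22 and 3.40.

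The genes whose pattern over the 8 arrays was most like that of Anxa3, among 9458 genes searched, were Apoe (Pearson r = 0.992), Cetn3 (r = 0.990) and Riox1 (r = 0.990). Apoe, the main apolipoprotein of glia, was at 17.58, 16.81, 17.05 and 18.44 on PBS arrays 1 to 4 and between 14.02 and 14.17 on the IL-4 arrays, so that it too was highest on PBS array 4. Its log2 difference was -3.37 ± 0.29 (SE), whereas those of Cetn3, a centrin of the centrosome, and Riox1, a ribosomal oxygenase, were -0.51 and -0.58. Most like Anxa5 were Lmo2 (r = 0.993), a cofactor of transcription in blood cells, Lmna (r = 0.992), which encodes lamin A and C, and Tmem26 (r = 0.991). Their log2 differences were 1.30, 0.61 and 2.39. These coefficients describe 8 arrays in 2 groups that stand apart for all of these genes.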

How the data were processed

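OPC cultures given PBS or IL-4 were measured on 8 Clariom S rat arrays. Per the submitters' processing notes, images were read with Affymetrix Expression Console and data handled in Transcriptome Analysis Console 4.0. The deposited values are log2 signals per probe set, which the authors had computed by RMA, a method that corrects background, makes the arrays' distributions alike and combines the probes of a set. The notes name the build rn6, and the promoter sequences are from RefSeq GRCr8. The number of arrays limits the precision.

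Gene symbols came from the platform annotation, which gave 1 symbol to 15049 probe sets and no usable one to 8139, all of which were tested. Differences (IL-4 minus PBS) were fitted over all 23188 probe sets, using lmFit and eBayes of limma 3.58.1 (R 4.3.3), with Benjamini-Hochberg adjustment and a call at an adjusted p under 0.05. The procedure was tested on simulated data. Python 3.11.15 was used for the summaries and plots. The members and lists were chosen with earlier results of these data known. Genes named from the other lists are up to 4 of each with the largest called difference, or the 2 with the smallest p, and the 3 most like Anxa3 and Anxa5 by Pearson r among genes above the 40th percentile of signal. Plg, Cpne1 and S100a1, which complete a count, Anxa8, S100a11 and the single cell type markers were named after their values were seen.

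The alternatives were quantile normalization, subtraction of array medians, a filter that dropped the dimmest 40% of probe sets, an intensity trend with a robust prior, the IL-4 arrays averaged, a block for the replicate number, omission of each array in turn, the methods' t-test, and a 2-fold threshold. For the arrays themselves the methods name Transcriptome Analysis Console and not the t-test. Another probe set per gene could not be tried, since each listed gene has a single one.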

Additional observations from a re-analysis of the deposited data

Results flagged for a closer look

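Among 54 groups of 4 arrays looked at for the members and the genes named from the other lists, 5 held an array far from the others by Dixon's criterion, where chance flags about 1 in 20. Anxa1 stood at 6.80 on IL-4 array 4 and at 6.57 on each of the other IL-4 arrays. S100a16 stood at 4.79 on PBS array 1 and between 6.08 and 6.34 on the other PBS arrays. S100a5 stood at 6.21 on IL-4 array 3 and between 5.36 and 5.39 on the others. At dim levels, Anxa13 stood at 4.02 on IL-4 array 1 against 3.61 to 3.68, and Fpr1 at 3.08 on IL-4 array 4 against 3.49 to 3.52.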

How the results depend on the processing

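The log2 difference of each of the 10 members moved by less than the SD of its PBS arrays in every alternative run (S100a6 had no value without dim probe sets), from -4.01 to -3.28 for Anxa3, -2.36 to -2.06 for Anxa2, 1.96 to 2.19 for Anxa5, 1.38 to 1.66 for Anxa4 and -1.04 to -0.818 for Anxa11. Leaving out each array in turn gave 2 to 3 members higher and 3 lower. Deviations from the group means had correlations of -0.018 to 0.006 between same-numbered arrays. Whether the replicate numbers pair the samples cannot be settled by this, since the IL-4 arrays differ little among themselves. With the replicate block 2527 probe sets were higher and 4013 lower, with 2 and 3 members, and the standard error of Anxa3 was 0.27. With the IL-4 arrays averaged, limma called 56 probe sets higher and 16 lower, 1 member higher and 0 lower, and 0 genes of the other lists higher and 0 lower, where 2 and 3 members and 9 and 5 list genes had an unadjusted p under 0.05. That setting leaves a single IL-4 value. Without dim probe sets, 1764 probe sets were called higher, and 6 genes of the other lists were higher and 4 lower against 11 and 7 of 55, with fewer genes tested. With the methods' t-test 7 list genes were higher, and the cause was not tested. With a 2-fold threshold 500 probe sets were higher and 543 lower, and 2 list genes higher and 1 lower. Quantile normalization moved the median of all probe sets from -0.068 to -0.0089. It called 3279 probe sets higher and 3582 lower, against 2776 and 4563 on the deposited values.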
